A study of Mus musculus with 13 samples.

Results

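The creatine futile cycle genes comprised 7 transcripts, Ckb, Ckmt1, Ckmt2, Slc6a8, Gatm, Gamt and Alpl, taken by gene name from the 55357 genes of a count table of mouse brown adipose tissue. All 7 had a row, 6 of them passed the filter on low counts beside 11073 genes in all, and Ckmt1 did not. Brown fat came from mice in which Adiponectin-Cre, which is active in adipocytes, deleted floxed Stim1 and Stim2 (KO), or from mice that carried the floxed alleles undeleted (control). Mice had spent 6 h at 4 °C (cold) or stayed at room temperature (RT). There were 4 KO cold, 4 control cold, 3 KO RT and 2 control RT libraries. The labels give no age and leave unsaid whether each library had its own animal. The p-values therefore reflect only the spread between these libraries, which may be technical.

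Brown adipocytes make heat mainly through the uncoupling protein Ucp1, and creatine offers another way to spend ATP. A creatine kinase moves the phosphate of ATP onto creatine, a phosphatase releases it from phosphocreatine, and the creatine returns for another round, so ATP is used up without work being done. Creatine reaches the cell through a transporter in the plasma membrane or is made from arginine and glycine by a pair of enzymes.

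Each library held 1570684 to 2016178 counts, all 10 markers of brown adipocytes were detected in every group, and Ucp1 rose in cold (log2 fold change averaged over genotypes 1.19 ± 0.10 SE, adjusted p = 3.66e-07). Stim1 and Stim2 tags lay lower in every KO than in every control library of the same temperature. At RT 7.96% of all genes tested did likewise, and the share in cold was not computed. Averaged over temperatures Stim1 fell in KO (-0.67 ± 0.11, adjusted p = 0.00345) and Stim2 was not called (-0.73 ± 0.19, adjusted p = 0.0730). In cold Stim1 was not called (-0.45 ± 0.13, adjusted p = 0.0570) and Stim2 was (-0.88 ± 0.24, adjusted p = 0.0382), a call lost in 6 of 13 fits with a library left out. Cells other than adipocytes keep both genes, and a 3′ tag that lies outside the deleted part does not report the deletion. The part of either in these values of Stim1 and Stim2 was not tested. Transcripts of skeletal muscle varied widely between libraries. The summed level of 18 muscle markers was 6.12, 26.6, 487 and 286 CPM (counts relative to the scaled size of the library) in KO cold libraries 1 to 4, and 13.2, 7.41, 269 and 401 CPM in control cold libraries 1 to 4. It was 2177, 1530.3 and 128 CPM in KO RT libraries 1 to 3, and 3574 and 38.6 CPM in the 2 control RT libraries. All 18 muscle markers were called lower in cold averaged over genotypes, beside 38.3% of all genes called in either direction. Within a genotype 2 of the 18 were called lower in KO and 11 in control, beside 18.9% and 25.2% of all genes called. KO RT 1, KO RT 2 and control RT 1 are named the high-muscle libraries here. In bulk tissue, fewer cells of a type and less RNA per cell cannot be told apart.

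Fold changes are log2 with their standard error (SE), from edgeR's quasi-likelihood test, and a gene was called changed where its Benjamini-Hochberg adjusted p over all 11073 genes lay under 0.05. In cold against RT averaged over genotypes, 4 of the 6 tested cycle genes were called, when 38.3% of all genes tested were. Ckb rose, and Gatm, Gamt and Ckmt2 fell. The median log2 fold change of the 6 genes was -0.74, beside -0.01 over all genes tested. In KO against control, none of the 6 was called in cold (5.93% of all genes called), at RT (0% called) or averaged over temperatures (1.3% called).

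**Figure D1:**
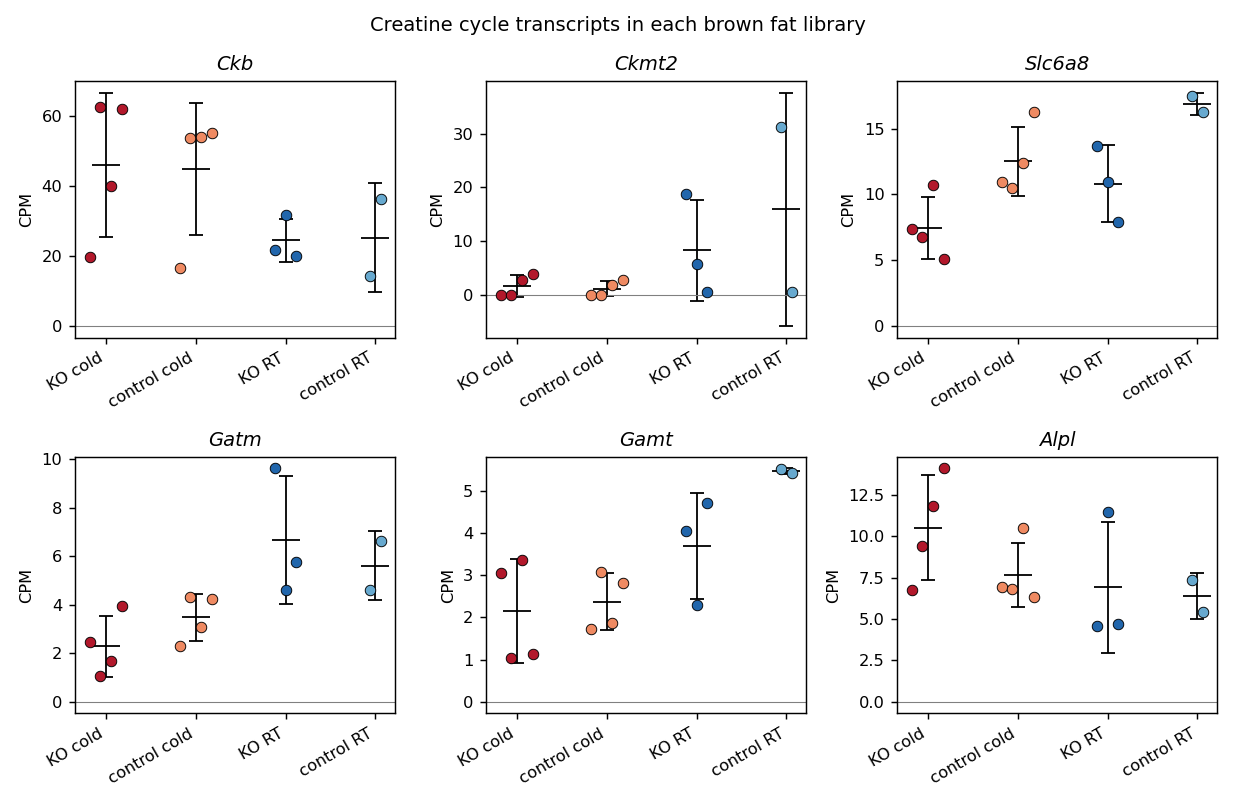
Level of 6 creatine cycle transcripts (CPM, linear axes that differ between panels) in each library of the 4 groups; points are libraries, and bars give mean ± SD. Gatm lay at 1.04 to 4.33 CPM in the 8 cold libraries and at 4.59 to 9.62 CPM in the 5 RT libraries, with no overlap, while the other 5 genes overlapped between cold and RT.

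Promoters are shown for the 3 called genes of the cycle other than Ckmt2, to set the gene that rose, Ckb, beside the pair that fell. The high-muscle libraries held 84.6% of the counts of Ckmt2, 38.1% of Gatm, 33.3% of Gamt and 15.3% of Ckb, beside 23.7% of all counts. Each window runs from 250 bases before the annotated start to 50 after it, on the gene's own strand, as given by RefSeq on GRCm38.p6. The windows are chr2:122611228-122611527 (minus strand) for Gatm, chr10:80260963-80261262 (minus strand) for Gamt and chr12:111672289-111672588 (minus strand) for Ckb. Capitals mark CCAAT, its reverse complement ATTGG, and TATAAA.
Gatm: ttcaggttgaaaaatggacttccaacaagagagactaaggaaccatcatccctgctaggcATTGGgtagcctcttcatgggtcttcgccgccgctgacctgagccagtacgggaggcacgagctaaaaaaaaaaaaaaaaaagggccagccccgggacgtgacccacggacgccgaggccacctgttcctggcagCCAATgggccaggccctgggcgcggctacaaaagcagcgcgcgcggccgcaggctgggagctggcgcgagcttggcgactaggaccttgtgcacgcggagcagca
Gamt: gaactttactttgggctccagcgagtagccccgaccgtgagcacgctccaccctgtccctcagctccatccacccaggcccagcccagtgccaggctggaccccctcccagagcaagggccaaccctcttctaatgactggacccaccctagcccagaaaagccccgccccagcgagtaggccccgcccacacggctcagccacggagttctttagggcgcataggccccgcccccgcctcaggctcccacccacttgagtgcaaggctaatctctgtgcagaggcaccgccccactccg
Ckb: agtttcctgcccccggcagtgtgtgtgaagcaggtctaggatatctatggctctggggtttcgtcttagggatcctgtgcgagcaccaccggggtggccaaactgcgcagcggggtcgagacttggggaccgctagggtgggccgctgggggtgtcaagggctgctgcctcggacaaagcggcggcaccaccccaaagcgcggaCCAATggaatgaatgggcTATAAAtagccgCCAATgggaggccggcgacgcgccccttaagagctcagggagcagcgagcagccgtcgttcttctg

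The Ckb window held TATAAA at position -28 and CCAAT at -46 and -16, counting the first base of the match from the start site. The Gatm window held CCAAT at -55 and, on the opposite strand, at -190, and the Gamt window held neither motif. These 2 motifs were chosen after the sequences were seen. CCAAT on either strand occurred in 37.4% and TATAAA in 13.6% of 32851 mouse promoter windows of the same length. GC content was 60.7% for Gatm, 66.0% for Gamt and 63.0% for Ckb, against a median of 52.7% over all windows. The cyclic AMP response element TGACGTCA (1.79% of windows), its part TGACG (20.8%), the nuclear receptor motif AAGGTCA (4.72%), the longer TNAAGGTCA (1.28%) and a direct repeat of AGGTCA with 1 base between the copies (0.0396%) were searched on both strands. None of their letters was found in the 3 windows. TGACG lies within TGACGTCA, and AAGGTCA within TNAAGGTCA, so these searches overlap. Windows were given for 6 of the 7 genes, and Slc6a8 is named only.

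Gatm (ENSMUSG00000027199.15, chromosome 2) encodes arginine:glycine amidinotransferase, which makes guanidinoacetate, the precursor of creatine. Its level was 2.45, 1.04, 1.69 and 3.95 CPM in KO cold libraries 1 to 4, and 2.30, 4.33, 3.10 and 4.24 CPM in control cold libraries 1 to 4. At RT it was 9.62, 4.59 and 5.77 CPM in KO and 4.60 and 6.63 CPM in control. Every cold library lay below every RT library, a pattern shared by 7.47% of all genes tested. Averaged over genotypes Gatm fell in cold by 1.10 on the log2 scale (SE 0.33, 95% interval -1.80 to -0.41, 0.465-fold, adjusted p = 0.0136). These levels rest on 2 to 19 counts in a library.

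In KO mice Gatm was the 1 cycle gene called in cold, where 18.9% of all genes were called and 16.4% lay lower in every cold library (-1.54 ± 0.44, adjusted p = 0.0210). Its mean was 2.28 ± 1.25 CPM in KO cold and 6.66 ± 2.63 CPM in KO RT (SD, n = 4 and 3). In control mice it averaged 3.49 ± 0.97 CPM in cold and 5.61 ± 1.44 CPM at RT (SD, n = 4 and 2), a log2 difference of -0.67 ± 0.48 that was not called (adjusted p = 0.329). The cold responses of KO and control differed by -0.88 ± 0.66, with a 95% interval of -2.26 to 0.51 (adjusted p = 0.795). Markers of fibroblasts moved in the same contrast: in KO the sum of 8 markers was 562 to 659 CPM in cold and 694 to 1371 CPM at RT, with no overlap, and 5 of the 8 were called lower (median log2 fold change -1.13). In control the sums were 517 to 1493 CPM in cold and 905 to 949 CPM at RT, and 0 of the 8 were called, none of them with an unadjusted p under 0.05 (median -0.18). Averaged over genotypes 3 of the 8 were called lower, beside 38.3% of all genes called in either direction. The part of fibroblast transcripts in the values of Gatm was not tested.

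The averaged fall of Gatm held with each library left out in turn except control RT 2 (adjusted p = 0.0661), and the fall in KO did not hold without KO cold 2, KO cold 3 or KO RT 1 (adjusted p = 0.0678, 0.0608 and 0.144). Without the high-muscle libraries the value in KO was -1.33 (adjusted p = 0.287). In that fit the averaged log2 fold change was -1.13 (adjusted p = 0.0975), and the 2 remaining RT libraries, at 5.77 CPM in KO and 6.63 CPM in control, lay above all 8 cold libraries.

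Gamt (ENSMUSG00000020150.14, chromosome 10) encodes guanidinoacetate methyltransferase, which adds the methyl group that completes creatine. It had 3.06, 1.04, 3.38 and 1.13 CPM in KO cold libraries and 1.73, 3.09, 1.86 and 2.82 CPM in control cold libraries. RT libraries had 4.05, 2.30 and 4.72 CPM in KO and 5.52 and 5.42 CPM in control. In control the cold and RT libraries did not overlap, and 20.6% of all genes were likewise lower in every cold library. In KO the library KO RT 2 lay within the cold range. Gamt fell by 0.99 averaged over genotypes (SE 0.34, 0.503-fold, adjusted p = 0.0308). Within a genotype it did not pass, at -0.79 ± 0.48 in KO (adjusted p = 0.268) and -1.19 ± 0.49 in control (adjusted p = 0.0872).

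The averaged call for Gamt depended on single libraries. It was lost without any of KO cold 2, KO cold 4, control cold 1, control cold 3, KO RT 1, KO RT 3, control RT 1 or control RT 2, with adjusted p of 0.0502 to 0.0962. It was also lost with DESeq2 (adjusted p = 0.0860) and with no filter on low counts (adjusted p = 0.0711). The log2 fold change stayed between -1.15 and -0.87 with each library left out, on 2 to 12 counts in a library.

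Ckb (ENSMUSG00000001270.10, chromosome 12), the brain-type creatine kinase that also phosphorylates creatine in thermogenic fat cells of mice, varied within both cold groups. It stood at 19.6, 62.6, 39.9 and 62.1 CPM in KO cold libraries 1 to 4, and at 16.7, 53.8, 53.9 and 55.1 CPM in control cold libraries 1 to 4. It stood at 21.8, 31.6 and 19.95 CPM in KO RT and at 14.3 and 36.2 CPM in control RT. Replicate 1 was the low library of both cold groups and lay within the RT range, and the other 6 cold libraries lay above every RT library. Ckb averaged 45.45 ± 18.2 CPM in cold and 24.7 ± 8.92 CPM at RT (SD, n = 8 and 5).

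Averaged over genotypes Ckb rose 1.86-fold in cold (0.89 ± 0.32, 95% interval 0.22 to 1.57, adjusted p = 0.0360). The estimates within a genotype were close to each other, 0.93 ± 0.42 in KO (adjusted p = 0.132) and 0.86 ± 0.48 in control (adjusted p = 0.207), and neither was called. Their difference was 0.07 ± 0.64, with a 95% interval of -1.28 to 1.42 (adjusted p = 0.989). The averaged rise was lost without any of KO cold 2, KO cold 4, control cold 2, control cold 3, control cold 4, KO RT 1, KO RT 3 or control RT 1 (adjusted p 0.0564 to 0.194). Its size ran from 0.62 without control RT 1 to 1.30 without control RT 2. Without the high-muscle libraries it was 0.75 (adjusted p = 0.254).

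The mitochondrial creatine kinases gave a different picture. Ckmt1 (ENSMUSG00000000308.15, chromosome 2), the ubiquitous mitochondrial form, had 1 count in KO cold 1 and 0 in the other 12 libraries. A count of 0 allows up to 0.470 CPM in control cold, 0.534 CPM in KO RT and 0.782 CPM in control RT, as 3 counts over the group and for counting error only. No comparison was made for it.

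Ckmt2 (ENSMUSG00000021622.4, chromosome 13) encodes the sarcomeric mitochondrial creatine kinase, typical of striated muscle and also found in brown fat of mice. Its level was 0, 0, 2.81 and 3.95 CPM in KO cold libraries 1 to 4, and 0, 0, 1.86 and 2.82 CPM in control cold libraries 1 to 4. It was 18.7, 5.74 and 0.525 CPM in KO RT libraries 1 to 3, and 31.3 and 0.603 CPM in control RT libraries 1 and 2. The 3 high RT values were those of the high-muscle libraries, and KO RT 3 and control RT 2 lay within the cold range. Averaged over genotypes Ckmt2 fell in cold by 3.05 (SE 0.84, adjusted p = 0.00866). It was the 1 cycle gene called within control mice, where 25.2% of all genes were (-3.84 ± 1.22, adjusted p = 0.0298), and the estimate in KO mice was -2.27 ± 1.13 (adjusted p = 0.178).

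The high-muscle libraries held 115 of the 136 counts of Ckmt2, 84.6%, and 23.7% of the counts of all genes. For Ckm, the muscle creatine kinase, they held 792 of 938 counts, 84.4%. The corresponding shares were 38.1% for Gatm, 33.3% for Gamt, 32.6% for Slc6a8, 24.1% for Alpl and 15.3% for Ckb. Without control RT 1 the log2 fold change of Ckmt2 in control mice turned to 0.80, and it was not called without control cold 1 or control cold 2 (adjusted p = 0.0733 and 0.0676). The averaged fall was lost without control RT 1 (-0.73, adjusted p = 0.803) or KO RT 1 (-2.33, adjusted p = 0.0744), and with DESeq2 (adjusted p = 0.0848). Without all 3 high-muscle libraries Ckmt2 was left with 21 counts and did not pass the filter. The part of muscle transcripts in these values was not tested.

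**Figure D2:**
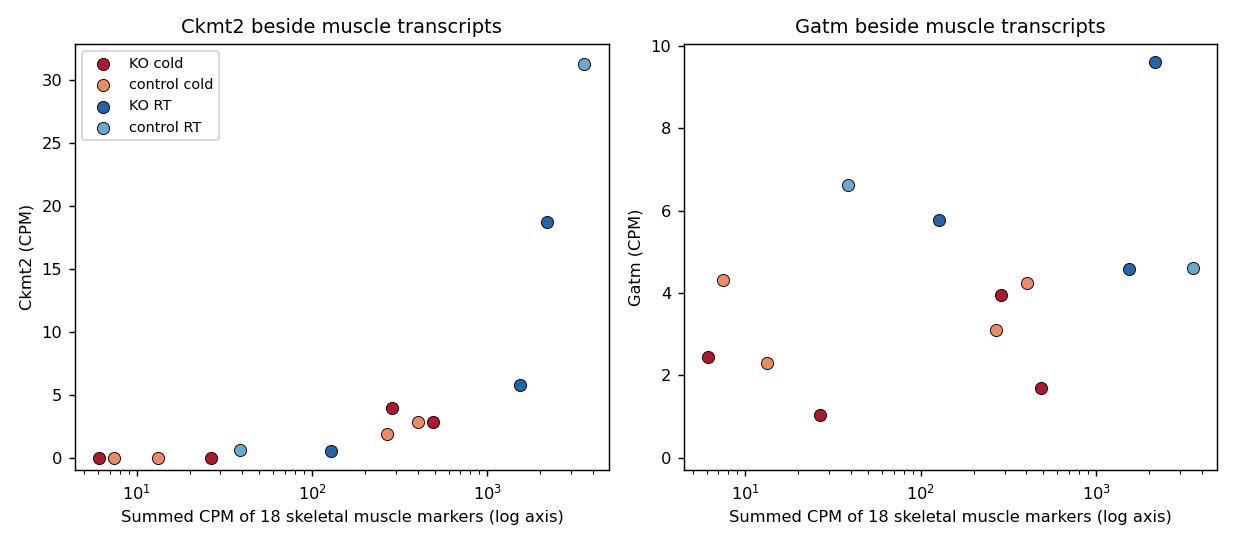
Level of Ckmt2 (left) and Gatm (right), in CPM on linear axes, against the summed CPM of 18 skeletal muscle markers on a log axis; each point is 1 of 13 libraries, coloured by group. Ckmt2 was above 5 CPM in the 3 libraries with marker sums over 1000 CPM, whereas Gatm was above every cold library in all 5 RT libraries, at marker sums of 38.6 to 3574 CPM.

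Slc6a8 (ENSMUSG00000019558.15, chromosome X), the creatine transporter of the plasma membrane, had the lowest p of the cycle genes in KO against control, without passing the threshold. Its level was 7.34, 6.78, 10.7 and 5.08 CPM in KO cold libraries, and 10.9, 10.5, 12.4 and 16.2 CPM in control cold libraries. At RT it was 13.7, 10.9 and 7.87 CPM in KO and 17.5 and 16.3 CPM in control. The RT libraries of KO all lay below those of control, as for 7.96% of all genes, and in cold only KO cold 3 reached into the control range. The log2 fold change was -0.73 ± 0.27 in cold (unadjusted p = 0.0150, adjusted p = 0.125) and -0.64 ± 0.30 at RT (unadjusted p = 0.0502, adjusted p = 1). Averaged over temperatures it was -0.68 ± 0.20, 0.622-fold, with a 95% interval of -1.11 to -0.26 (unadjusted p = 0.00364, adjusted p = 0.118).

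With each library left out in turn the averaged value of Slc6a8 stayed between -0.80 and -0.59, and the lowest adjusted p was 0.0800. Means were 7.47 ± 2.35 CPM in KO cold, against 12.5 ± 2.61 CPM in control cold (SD, n = 4 each), and 10.8 ± 2.90 CPM in KO RT and 16.9 ± 0.85 CPM in control RT (SD, n = 3 and 2). In cold against RT, Slc6a8 differed by -0.49 ± 0.20 averaged over genotypes (adjusted p = 0.0681), which was not called. The call appeared without KO cold 3 (adjusted p = 0.0314), control cold 4 (adjusted p = 0.0445) or KO RT 3 (adjusted p = 0.0378). The cold responses of the genotypes differed by -0.09 ± 0.40, with a 95% interval of -0.94 to 0.75.

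Alpl (ENSMUSG00000028766.11, chromosome 4) encodes the tissue-nonspecific alkaline phosphatase, which hydrolyses phosphocreatine in thermogenic fat of mice. It had 6.73, 9.39, 11.8 and 14.1 CPM in KO cold libraries and 6.91, 6.80, 10.5 and 6.35 CPM in control cold libraries. It had 4.56, 11.5 and 4.72 CPM in KO RT libraries and 7.36 and 5.42 CPM in control RT libraries. All 4 groups overlapped. The log2 difference of cold from RT was 0.62 ± 0.36 in KO (adjusted p = 0.242), 0.24 ± 0.43 in control (adjusted p = 0.719) and 0.43 ± 0.28 averaged (95% interval -0.16 to 1.02, adjusted p = 0.235). KO RT 2 was the high library of its group, and without it the value passed in KO (1.18, adjusted p = 0.0496) and averaged (0.71, adjusted p = 0.0497).

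**Figure D3:**
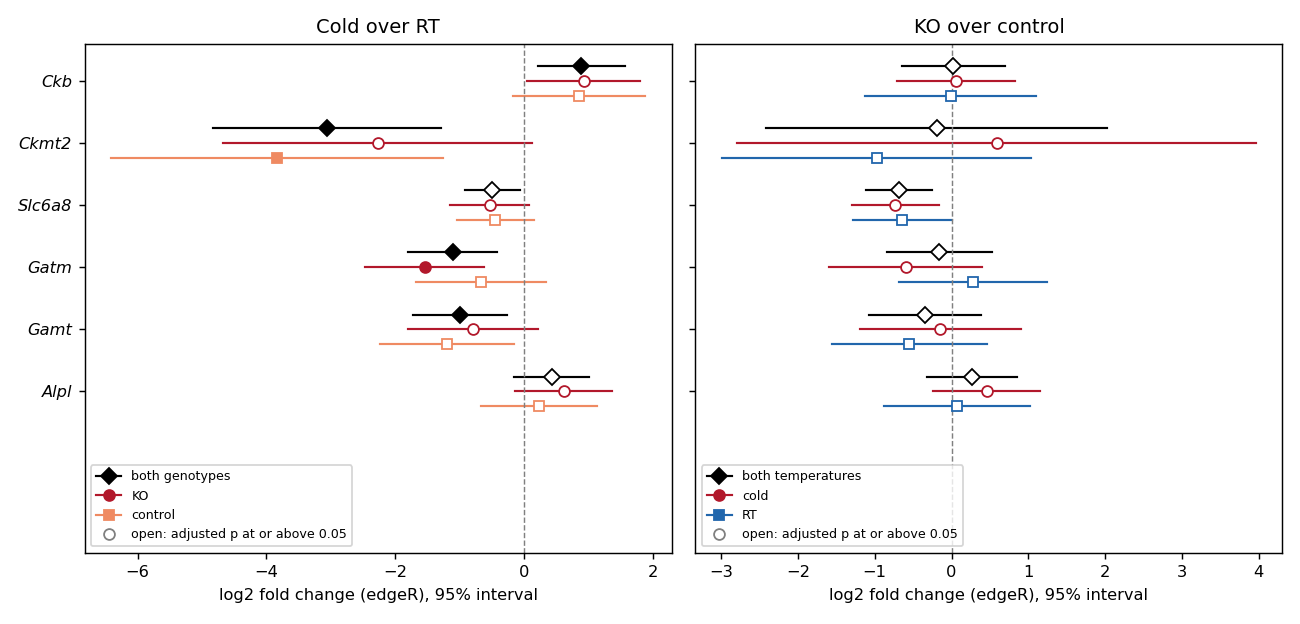
Log2 fold change (edgeR) of the 6 tested cycle genes, with the 95% interval derived from the F statistic. Cold over RT is on the left and KO over control on the right, for both groups averaged and for each alone. Open symbols have adjusted p at or above 0.05. On the left Ckb, Ckmt2, Gatm and Gamt have filled averaged symbols, and on the right no symbol is filled.

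In KO against control no cycle gene was called. In cold 1 of the 6 genes, Slc6a8, had an unadjusted p under 0.05, beside 2224 of all 11073 genes tested, and DESeq2 also called none. The cold values besides Slc6a8 were 0.06 ± 0.36 for Ckb, -0.60 ± 0.47 for Gatm, -0.15 ± 0.50 for Gamt, 0.46 ± 0.33 for Alpl and 0.59 ± 1.60 for Ckmt2. The 95% intervals ran from -0.71 to 0.83 for Ckb, -1.60 to 0.40 for Gatm, -1.20 to 0.90 for Gamt and -0.24 to 1.15 for Alpl. At RT, where 346 of all genes had an unadjusted p under 0.05 and none of the 6 cycle genes did, Ckb was at -0.01 ± 0.52, Gatm at 0.28 ± 0.46, Gamt at -0.55 ± 0.48 and Alpl at 0.07 ± 0.45. For Gamt the KO RT libraries all lay below the control RT libraries, as for 7.96% of all genes tested. The difference between the cold responses of KO and control was called for none of the 6 genes and for 0.0181% of all genes.

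Genes around the cycle were counted in lists by role. Of 11 phosphotransfer partners, which carry or shuttle high-energy phosphate, all were tested, and averaged over genotypes 2 rose and 4 fell in cold, when 38.3% of all genes were called, with a median log2 fold change of -0.15 beside -0.01 over all genes. Ak1, the cytosolic adenylate kinase, which is abundant in muscle, fell by 1.17 (SE 0.21, adjusted p = 0.000367) and did not pass without the high-muscle libraries (adjusted p = 0.0801). Vdac2, a channel of the outer mitochondrial membrane, rose by 0.29 (SE 0.07, adjusted p = 0.00418), and did not pass without those libraries (adjusted p = 0.131). Ckm fell by 3.12 (SE 0.83, adjusted p = 0.00743), but its log2 fold change was 0.47 without control RT 1. None of the 11 was called in KO against control in cold.

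Of 18 genes that supply arginine, glycine or methyl groups to creatine synthesis or compete for them, 14 were tested, and 5 rose and 3 fell in cold, beside 38.3% of all genes called (median 0.23). Slc7a1, the cationic amino acid transporter that brings arginine into cells, rose 8.61-fold (3.11 ± 0.54, adjusted p = 0.00028), to 59.2 ± 39.4 CPM in cold, against 6.79 ± 3.20 CPM at RT (SD, n = 8 and 5). Asl, argininosuccinate lyase, which forms arginine, rose 3.71-fold (1.89 ± 0.30, adjusted p = 0.000123). Odc1, ornithine decarboxylase of polyamine synthesis, rose 2.89-fold (1.53 ± 0.20, adjusted p = 1.89e-05). Oat, ornithine aminotransferase, which uses the ornithine that Gatm also releases, fell by 0.45 (SE 0.09, adjusted p = 0.00136).

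In this list 2 of the 14 genes rose in KO against control in cold and none fell, beside 5.93% of all genes called. Shmt2, the mitochondrial serine hydroxymethyltransferase that forms glycine, had 19.6, 24.0, 20.3 and 9.03 CPM in the KO cold libraries and 6.91, 8.65, 4.34 and 8.47 CPM in the control cold libraries. The groups did not overlap, as for the 6.28% of all genes that were higher in every KO cold library. The nearest libraries of the groups were 9.03 and 8.65 CPM (1.36 ± 0.29, 2.57-fold, adjusted p = 0.0113). At RT the order of Shmt2 was the opposite, with 7.09, 7.46 and 8.40 CPM in KO and 10.6 and 10.8 CPM in control. It was not called there, and 7.96% of all genes were likewise lower in every KO RT library. Oat rose by 0.47 ± 0.12 (adjusted p = 0.0280), at 73.7 ± 7.07 CPM in KO cold, against 53.1 ± 1.86 CPM in control cold (SD, n = 4 each). The call for Shmt2 held with each library left out, and that for Oat was lost without KO cold 1, 3 or 4 or control cold 1, 2 or 4 (adjusted p up to 0.0859), and with no filter on low counts (adjusted p = 0.0740).

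Alpl acts on extracellular pyrophosphate as well, and of 10 phosphatases and carriers of phosphate and pyrophosphate 5 were tested, of which 2 rose and 1 fell in cold, beside 38.3% of all genes called. Slc20a1 and Slc20a2, sodium-dependent phosphate importers, rose in cold (1.86 ± 0.24, adjusted p = 2.4e-05, and 0.81 ± 0.12, adjusted p = 7.5e-05), and Ank, which exports ATP and pyrophosphate, fell by 1.25 (SE 0.22, adjusted p = 0.000348). In KO against control in cold Slc20a1 fell by 1.35 (SE 0.26, adjusted p = 0.00589), at 61.2 ± 14.3 CPM in KO and 156.9 ± 65.6 CPM in control (SD, n = 4 each). Its log2 rise in cold was 1.23 ± 0.32 in KO and 2.48 ± 0.37 in control, and the test of that difference did not pass (-1.25 ± 0.48, adjusted p = 0.505).

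**Figure D4:**
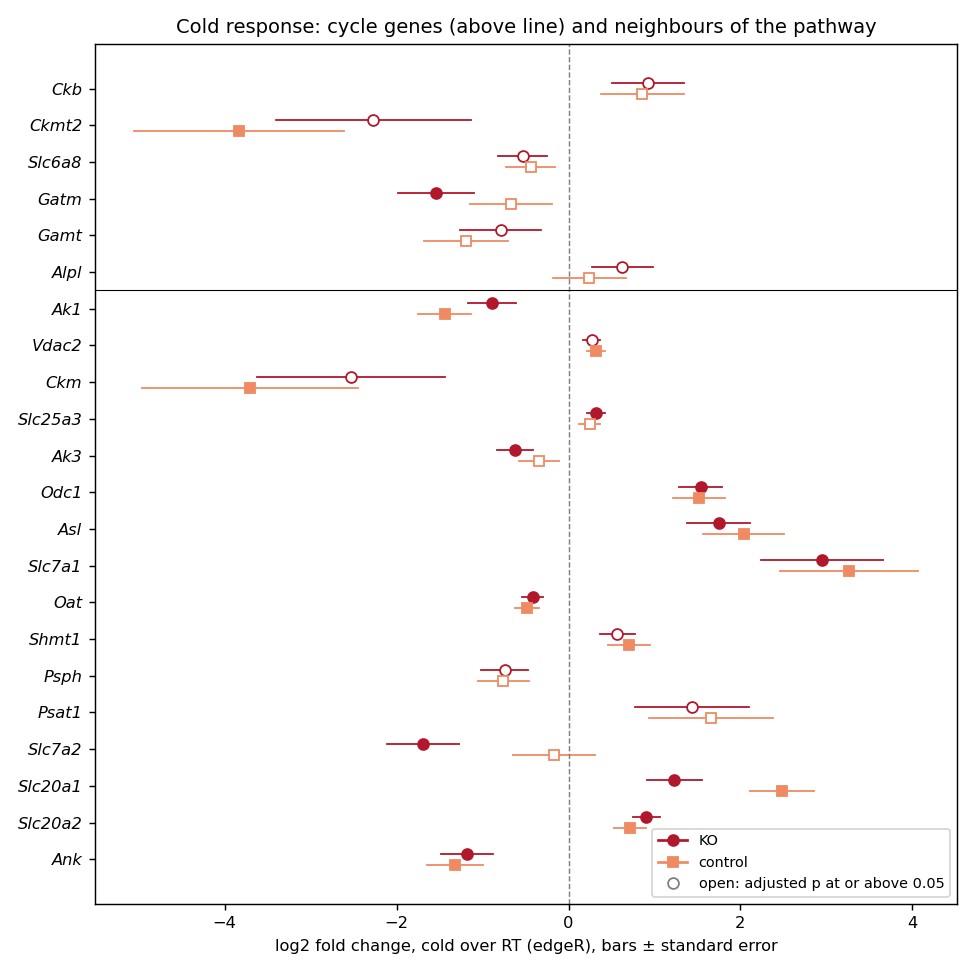
Log2 fold change of cold over RT (edgeR, ± SE) in KO and in control for the 6 tested cycle genes, above the line, and for called genes of the 3 lists around them that are reported here, below it; open symbols have adjusted p at or above 0.05. Slc7a1, Asl, Odc1, Slc20a1 and Slc20a2 lie to the right of 0 in both genotypes, and Gatm, Gamt, Ak1 and Ank to the left.

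Other energy-wasting cycles of the brown adipocyte were set beside creatine cycling. Of 11 such genes 9 were tested, and averaged over genotypes 4 rose and 4 fell in cold, beside 38.3% of all genes called. Atp2a1 and Ryr1, among those that fell, are also in the list of skeletal muscle markers. At RT Atp2a1 had 57.2, 39.0 and 124 CPM in the high-muscle libraries, and 2.62 and 0 CPM in KO RT 3 and control RT 2. The part of muscle transcripts in these falls was not tested. Gk, glycerol kinase of the triglyceride and fatty acid cycle, rose 4.37-fold (2.13 ± 0.17, adjusted p = 1.47e-07). Atp2a2, the calcium pump SERCA2 of the calcium cycle, rose 1.98-fold (0.99 ± 0.11, adjusted p = 3.84e-06), and in KO against control in cold it fell by 0.68 (SE 0.13, adjusted p = 0.00366). In the same comparison Gk fell by 0.76 (SE 0.18, adjusted p = 0.0214), a call lost without any 1 of the 4 KO cold libraries or control cold 2 (adjusted p up to 0.0624). Lipe, hormone-sensitive lipase, was higher in KO than in control in cold, by 0.60 (SE 0.11, adjusted p = 0.00472). It had 510 to 568 CPM in KO cold, 301 to 449 CPM in control cold and 559 to 576 CPM at RT. Averaged over genotypes it was called lower in cold against RT. Dgat2, which rebuilds triglyceride, fell in cold by 1.82 (SE 0.24, adjusted p = 2.89e-05). In KO against control averaged over temperatures Gk fell by 0.83 (SE 0.15, adjusted p = 0.00836; 0.0781 without control RT 2), and Oat of the arginine list rose by 0.44 ± 0.10 (adjusted p = 0.0339). The call for Oat was lost without KO cold 1, 3 or 4, control cold 1, any KO RT library or control RT 1 (adjusted p up to 0.117). Whether creatine cycle genes differed from these other cycles was not tested.

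Endothelium was also followed by its markers. The sum of 12 endothelial markers ran from 702 to 1209 CPM in cold and from 705 to 1012 CPM at RT. Averaged over genotypes 3 of them were called higher in cold and 3 lower, beside 38.3% of all genes called in either direction. Their part in the values of the cycle genes was not tested.

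The genes whose log2 CPM followed a member most closely over the 13 libraries were looked up for the members averaging at least 10 CPM. For Ckb they included Sephs2 (Pearson r = 0.844) and Rpl4 (r = 0.840), and for Slc6a8 they were Elmo2 (r = 0.878), Fhl1 (r = 0.870) and Anks3 (r = 0.815). They are among the 3 highest of 8101 genes searched for each member, the libraries share the temperature and genotype groups, and the values are a description.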

How the data were processed

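Total RNA of brown adipose tissue was read as 3′ tags (QuantSeq), per the labels' protocols. The authors deposited raw whole-number counts for each Ensembl gene. The aligner STAR 2.7.10b, the counter HTSeq 0.12.3, Trim Galore 0.6.7, UMI-tools 1.1.2 and the build GRCm39 come from the submitters' processing notes, which give no parameters. Whether strand was used and whether tags were collapsed by molecular identifier is not given in the sources used here, so overlapping or antisense genes cannot be told apart. Of 55632 lines 275 repeats were dropped. Lines without a symbol held at most 0.00569% of the counts of a library.

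Counts were fitted with edgeR 4.0.16 (R 4.3.3): filterByExpr with a minimum count of 10 (11073 genes), trimmed-mean scaling, 1 quasi-likelihood fit of all 13 libraries with a mean per group, and 7 two-sided contrasts with Benjamini-Hochberg adjustment over all genes. The 2 contrasts averaged over genotype or temperature weight both levels equally. Coding was tested first on simulated counts. Replicate pairs had a chi-square of 1.92 to 6.36 per degree of freedom, above sampling noise.

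The members, lists and tests were chosen with earlier results of these data known. All 7 members are named, and of each further list up to 4 called genes with the smallest p besides Stim1, Stim2 and Ucp1. Some genes that this rule selects are not reported here. Alternatives were other size factors, no filter, DESeq2 1.42.0, a replicate block, fits of the compared groups only, and each library left out. A fit without the high-muscle libraries was added after marker sums were seen.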

Additional observations from a re-analysis of the deposited data

Results flagged for a closer look

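The 36 sets of 4 libraries examined were each a gene, or the summed markers of a cell type, in a cold group. In 3 sets, all of them of a gene, 1 library stood apart. Its gap to the nearest other, as a share of the range, was above Dixon's 95% critical value. Chance reaches that value in about 1 of 20 sets. Ckb in control cold had its lowest library at 16.7 CPM, with the others at 53.8 to 55.1 CPM. Alpl in control cold had its highest library at 10.5 CPM, with the others at 6.35 to 6.91 CPM. Ckmt1 in KO cold had 1 library at 0.612 CPM, a single count, with the others at 0. With the others at 0 the gap fills the range whatever the value, so a single count fixed this flag. The chance rate above does not apply to it.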

How the results depend on the processing

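Of 1289 recomputed fold changes, 1157 kept their direction and side of the threshold, 70 lost a call, 19 gained one and 43 changed sign. The number of cycle genes called in cold against RT, averaged over genotypes, was 2 with DESeq2 and 0 without the high-muscle libraries, against 4. In KO it was 3 with no filter, 0 in a fit of the compared groups and 0 without the high-muscle libraries, against 1. In control it was 2 with no filter and 0 with DESeq2, in a fit of the compared groups or without the high-muscle libraries, against 1. With a library left out these counts ran from 1 to 5 averaged, 0 to 2 in KO and 0 to 1 in control. The number of cycle genes tested also differed between fits, being 7 with no filter and 5 without the high-muscle libraries, against 6. A gene removed by the filter could not be called. Fewer libraries leave less power, and the cause of each change was not tested.

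Over all genes, calls in KO against control at RT were 0, but 50 with no filter and 3 with DESeq2. Those averaged over temperatures were 467 with no filter, 235 with DESeq2 and 51 without the high-muscle libraries, against 144. For the difference of cold responses they were 133 with no filter, 29 with DESeq2 and 0 under the replicate block or without the high-muscle libraries, against 2. Without the high-muscle libraries 452 genes were called for cold in KO, 870 in control and 1781 averaged, and a fit of the compared groups called 1685 in control. With a library left out, calls ran from 392 to 716 for KO against control in cold, 0 to 3 at RT, 64 to 210 averaged, 1219 to 2271 for cold in KO, 1067 to 2821 in control, and 0 to 4 for the difference.

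Signs turned as follows. Without the high-muscle libraries KO against control was -0.20 for Gatm and -0.19 for Alpl at RT and -0.40 for Ckb averaged, the difference of cold responses 0.32 for Slc6a8, and Ckm in cold 2.14. With DESeq2 Ckb averaged -0.00228 in KO against control. With a library left out, KO against control in cold ran from -0.22 to 0.30 for Ckb, -0.22 to 1.38 for Ckmt2 and -0.45 to 0.10 for Gamt. At RT it ran from -0.58 to 0.77 for Ckb, -2.42 to 3.65 for Ckmt2, -0.092 to 0.55 for Gatm and -0.48 to 0.32 for Alpl. Averaged, it ran from -0.26 to 0.42 for Ckb, -0.92 to 2.12 for Ckmt2 and -0.0091 to 0.39 for Alpl. Cold in control ran from -4.73 to 0.80 for Ckmt2, Ckm averaged from -3.66 to 0.47, and the difference of cold responses from -0.71 to 0.64 for Ckb, -3.06 to 3.01 for Ckmt2 and -0.31 to 0.13 for Slc6a8.

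Deviations of same-numbered cold libraries from their group means correlated at -0.16 to 0.14, over 0.1 in 1 of 4 pairs. Of the 4 KO libraries 0 correlated best with their own number. So few pairs cannot exclude that replicate numbers pair the libraries. The RT pairs correlated at -0.013 to 0.33, over 0.1 in 1 of 2. The deviations of the 2 control RT libraries mirror each other by construction, so the RT pairs cannot decide about pairing. With the replicate block, 564 genes were called in KO against control in cold, 1629 for cold in KO, 2122 in control, 3481 averaged and 140 for KO averaged. Cycle genes called in cold averaged over genotypes were then 3, as Gamt had adjusted p = 0.0742. Oat lost its call under the block in KO against control in cold (adjusted p = 0.0502) and averaged (adjusted p = 0.0752). Under the block Alpl at RT was -0.034 and Ckmt2 averaged over temperatures 0.024 in KO against control. Counts of 2 to 19 per library limit Gatm and Gamt.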
